A study of Gallus gallus with 6 samples.

Results

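The genes of MHC class II antigen presentation and T cell costimulation were followed in chicken monoblasts transformed by deltaP v-Myb or by wild type v-Myb. They were chosen by name: the invariant chain CD74, the class II transactivator CIITA, the class II beta chains BLB1 and BLB2, the peptide-exchange subunit DMA, and the costimulatory molecules CD40, CD80, CD83 and CD86. Every probe set of the Affymetrix chicken array that the platform annotation gives to exactly 1 of these 9 symbols was taken. That gave 17 probe sets for 7 of the 9 symbols and for 8 gene identifiers, since CIITA stands for 2 identifiers, out of 13051 identifiers on the array. BLB2 and CD80 had no probe set of their own.

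The cells were Brown Leghorn monoblasts, immature precursors of monocytes and macrophages, transformed as primary cells and moved to culture 16 days after infection, in medium with fetal bovine and chicken serum. The deltaP group (3 biological replicates) carried a mutated v-Myb, the oncogenic transcription factor of avian myeloblastosis virus, and the wild type group (3 biological replicates) carried unmutated v-Myb. Both groups were thus transformed by v-Myb, and no untransformed cells were analysed here. The series title concerns the leucine zipper region of v-Myb, but no label describes the deltaP mutation itself, and the 1 MYB probe set was near the floor of the table in both groups (mean log2 value 2.17 in deltaP and 2.15 in wild type), so the v-Myb transcripts themselves could not be checked. The labels do not say whether replicates came from different birds.

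Class II molecules carry peptides from the endosomes to the cell surface, where CD4 T cells read them. The invariant chain CD74 binds new class II dimers in the endoplasmic reticulum, blocks their groove and leads them to endosomes. There proteases trim it and the DM heterodimer exchanges its last fragment for peptide. In mammals CIITA joins the RFX, CREB and NF-Y factors at class II promoters and sets how much of the pathway is made. CD80 and CD86 bind CD28 on T cells, CD40 receives the CD40 ligand of helper T cells, and CD83 is a surface protein of mature dendritic cells and activated leukocytes.

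For every probe set the deposited values of the same-numbered deltaP and wild type arrays had the same sum in all 3 replicate numbers, to within 0.001 log2 units. The 6 values therefore amount to 3 deltaP minus wild type differences, 1 for each replicate number (a pair below), and a single value is not the level measured on that array. Whether the groups overlap thus only restates whether the 3 differences share a sign. Errors are given as the SD of these 3 differences, and tests are from limma (linear models with moderated variances), blocked on replicate number. Probe sets entered the test if 3 or more of their 6 log2 values exceeded 4, as was so for 16199 of 38439. The share of probe sets over 4 was 41.9% on each deltaP array and between 41.8% and 42% on the wild type arrays. Since single values are not measured levels, these shares cannot tell of array quality. Precision is limited by how few arrays there are. The poly-A control RNAs, added to each sample, had median deltaP minus wild type differences of -0.08, -0.05 and 0.68 log2 units in pairs 1, 2 and 3, and the hybridization controls had 0.06, -0.21 and 0.53.

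Of the 17 probe sets, 12 could be tested, for 5 symbols: 3 of 3 for CD74, 3 of 4 for CIITA, 4 of 5 for BLB1, and the only ones of DMA and CD83. The class II genes were near the same level in both groups. CD74, BLB1 and DMA had log2 differences, deltaP minus wild type, between -0.22 and 0.11, while CD83 had the largest difference of the tested members, 0.7, with a sign that turned between pairs. None of the 12 passed an adjusted p of 0.05, with adjusted p from 0.691 to 0.98, and none had an unadjusted p under 0.05 (lowest 0.189). Over all 16199 tested probe sets 0% passed the adjusted threshold and 9.26% had an unadjusted p under 0.05. Without the block, limma passed 0 of the 12 members and 6.91% of all tested probe sets.

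CD74, the invariant chain (Entrez gene 414741), was bright on every array and differed little between the groups. Its first probe set had log2 values of 15.45, 15.55 and 15.25 in deltaP replicates 1 to 3, against 15.59, 15.49 and 15.79 in the wild type replicates. The deltaP value was the lower one in pairs 1 and 3 and the higher one in pair 2, so the groups overlapped. Within pairs 1, 2 and 3 the differences were -0.14, 0.06 and -0.53, a mean of -0.2 ± 0.3 (SD, n = 3 pairs). The 95% interval of the limma fit ran from -0.54 to 0.14, which is a deltaP to wild type ratio between 0.687 and 1.1 (limma adjusted p = 0.691). The other CD74 probe sets had smaller differences of -0.06 ± 0.11 and -0.09 ± 0.11 (SD, n = 3 pairs). All 3 sets were lower in deltaP in pairs 1 and 3, and none was below 0 in pair 2. An exact two-sided sign-flip test of the 3 differences gave 0.5 for the first set, and 3 pairs cannot give less than 0.25. Saturation, which could shrink differences at such bright levels, was not checked for CD74 or for BLB1 below.

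BLB1, a class II beta chain of the chicken MHC (Entrez gene 693256), was likewise bright and level. In the first probe set the deltaP values were 14.74, 14.79 and 14.67, against 14.74, 14.69 and 14.81 in wild type. The values overlapped and lay within 0.14 log2 units of each other in every pair. Its difference was -0.01 ± 0.12 (SD, n = 3 pairs), and the interval from -0.25 to 0.23 corresponds to a ratio between 0.839 and 1.17 (limma adjusted p = 0.98). The second set differed by -0.02 ± 0.17. The third, with mean log2 values of 12.54 in deltaP and 12.63 in wild type, had the widest pair differences of these 3, at -0.25, 0.32 and -0.34. These readings may mix genes, because chicken class II beta genes are closely related and sets of the _x_at kind hold probes that can bind similar sequences.

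The dimmer BLB1 probe sets carried little. The fourth set averaged 4.08 in deltaP and 4.3 in wild type, close to the filter value, and differed by -0.22 ± 0.33 (SD, n = 3 pairs), mostly from -0.59 in pair 2. The fifth stayed between 2.57 and 2.61 on all arrays and was not tested. For BLB2, the neighbouring beta chain gene, the annotation gives 1 probe set that it shares with BLB1. That set lay between 2.09 and 2.12 on all 6 arrays, so it measured neither gene.

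DMA (Entrez gene 417050) encodes the alpha chain of the DM heterodimer. Its deltaP values were 10.01, 10.27 and 10.1, against 10.14, 9.88 and 10.04 in wild type. The groups overlapped, with deltaP lower in pair 1 and higher in pairs 2 and 3. The difference was 0.11 ± 0.26 (SD, n = 3 pairs), with an interval from -0.25 to 0.48 (limma adjusted p = 0.836).

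CIITA, the coactivator that switches on class II genes, was represented by 2 identifiers. For the first (Entrez gene 416633) the brightest set had 7.69, 7.94 and 7.91 in deltaP, against 8.07, 7.81 and 7.84 in wild type. Only pair 1 differed by more than 0.13, at -0.38, and the mean difference was -0.06 ± 0.28 (SD, n = 3 pairs; limma adjusted p = 0.938). The second set averaged 4.5 in deltaP and 4.54 in wild type and was the only 1 of the 12 tested sets with the same direction in all 3 pairs. Its differences were -0.06, -0.04 and -0.03, so its groups did not overlap, as was the case for 32.5% of all tested probe sets. The third set stayed below 4 on all arrays and was not tested.

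The second CIITA identifier (Entrez gene 427676) is not in the RefSeq gene table used here, so what its probe set measures is less sure. It had 4.63, 4.68 and 4.28 in deltaP, against 4.73, 4.68 and 5.07 in wild type. Pairs 1 and 2 were near level and pair 3 was lower in deltaP by 0.79 log2 units. The mean difference of -0.3 ± 0.43 (SD, n = 3 pairs) had an interval from -0.9 to 0.31 (limma adjusted p = 0.747). A further set that the annotation assigns to both identifiers was faint (mean 4.1 in deltaP and 4.02 in wild type) and differed by 0.08.

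**Figure D1:**
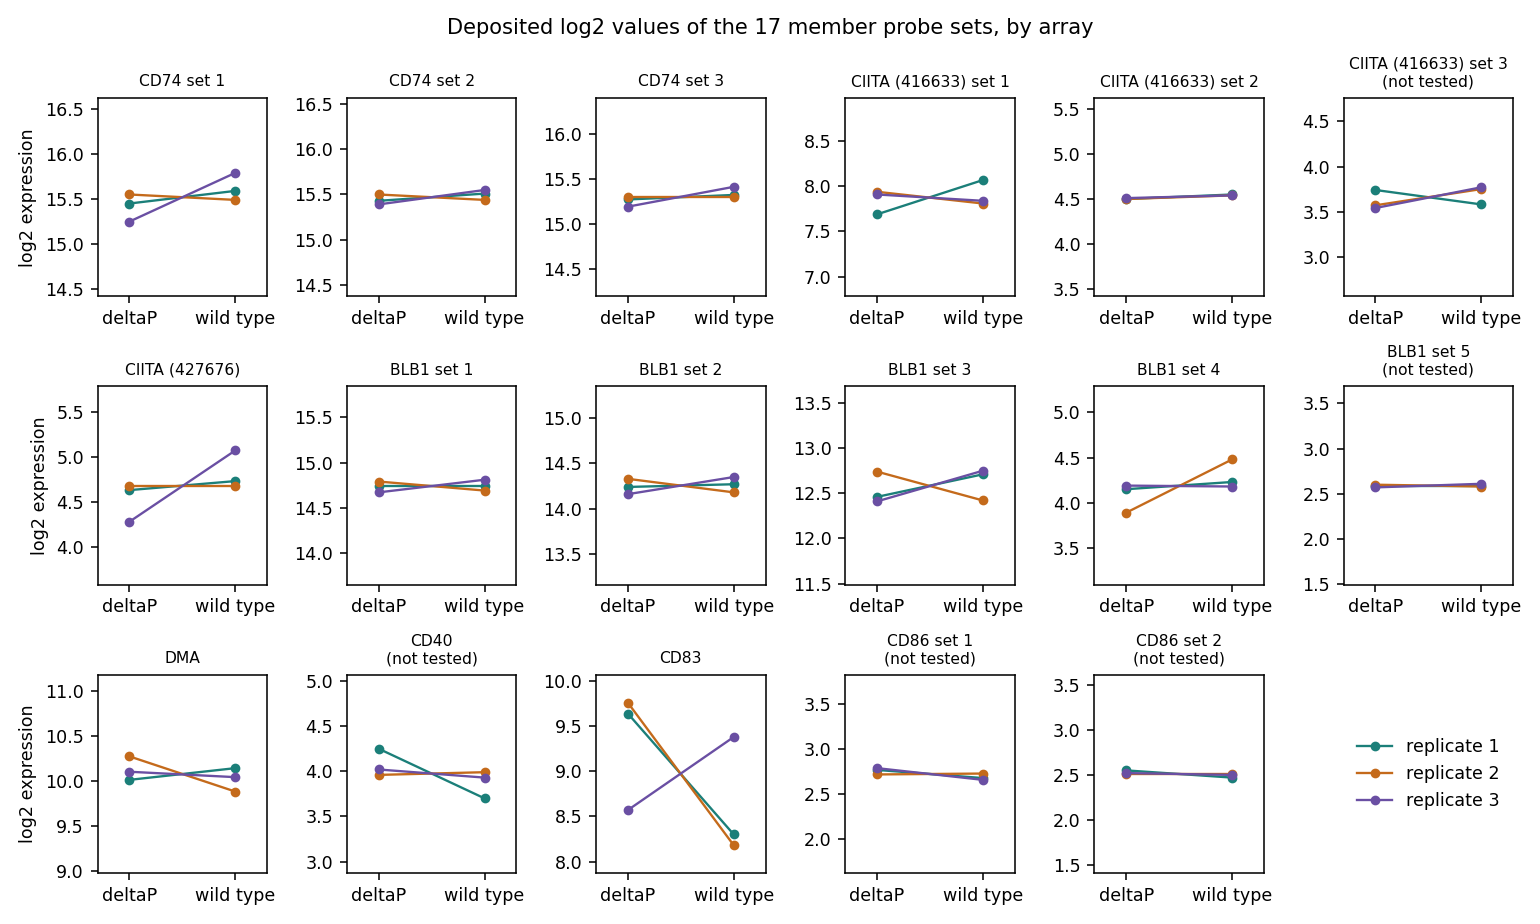
Deposited log2 expression (y axis, 2.2 log2 units in every panel) of the 17 probe sets on the deltaP and wild type arrays, with lines joining arrays of the same replicate number; sets of a gene are numbered from bright to dim. CD83 has the steepest lines, 2 of them falling to wild type and that of replicate 3 climbing to it, while the CD74 and BLB1 lines are nearly flat.

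Among the costimulatory molecules, CD83 stood at a well measured level and its direction differed between replicate pairs. CD83 (Entrez gene 420838) had 9.64, 9.76 and 8.57 in deltaP, against 8.3, 8.18 and 9.38 in wild type. It was thus 2.53-fold higher in deltaP in pair 1 and 2.99-fold higher in pair 2, but 1.76-fold lower in pair 3, and the groups overlapped. The mean log2 difference was 0.7 ± 1.32 (SD, n = 3 pairs), with an interval from -0.49 to 1.89, a ratio between 0.711 and 3.72 (limma adjusted p = 0.696). The exact two-sided sign-flip test gave 0.5. The value depended on each pair. Without pair 1 the difference was 0.38, with an interval from -1.03 to 1.79. Without pair 2 it was 0.26, with an interval from -1 to 1.52. With pairs 1 and 2 alone it was 1.46, with an interval from 1.07 to 1.85 (limma adjusted p = 0.105). In that last fit 12.1% of all tested probe sets had an unadjusted p under 0.05. It drops the only pair of the other sign, so its interval cannot be read as support for a difference.

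CD40, the receptor for CD40 ligand (Entrez gene 395385), was faint. Its deltaP values were 4.25, 3.96 and 4.02, against 3.7, 3.99 and 3.93 in wild type, so 2 of the 6 arrays were over 4 and it was not tested. The difference of 0.2 ± 0.31 (SD, n = 3 pairs) came from pair 1, at 0.55. The CD86 probe sets (Entrez gene 427944), for a ligand of CD28, stayed between 2.47 and 2.79 on all arrays, so CD86 was not measurable in either group on this array. Values this low sit at the floor that GCRMA leaves, and a difference there cannot be read.

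For CD80, the other CD28 ligand, the gene table lists that name as a synonym of a gene with the symbol CD88 (Entrez gene 768950). This probe set was outside the choice by symbol and was added after its values were seen. It had 4.51, 4.69 and 4.41 in deltaP, against 4.04, 3.85 and 4.14 in wild type, close to the filter value. The groups did not overlap, as was so for 32.5% of all tested probe sets. The difference was 0.53 ± 0.29 (SD, n = 3 pairs; limma adjusted p = 0.543). No file here says which product that gene encodes.

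**Figure D2:**
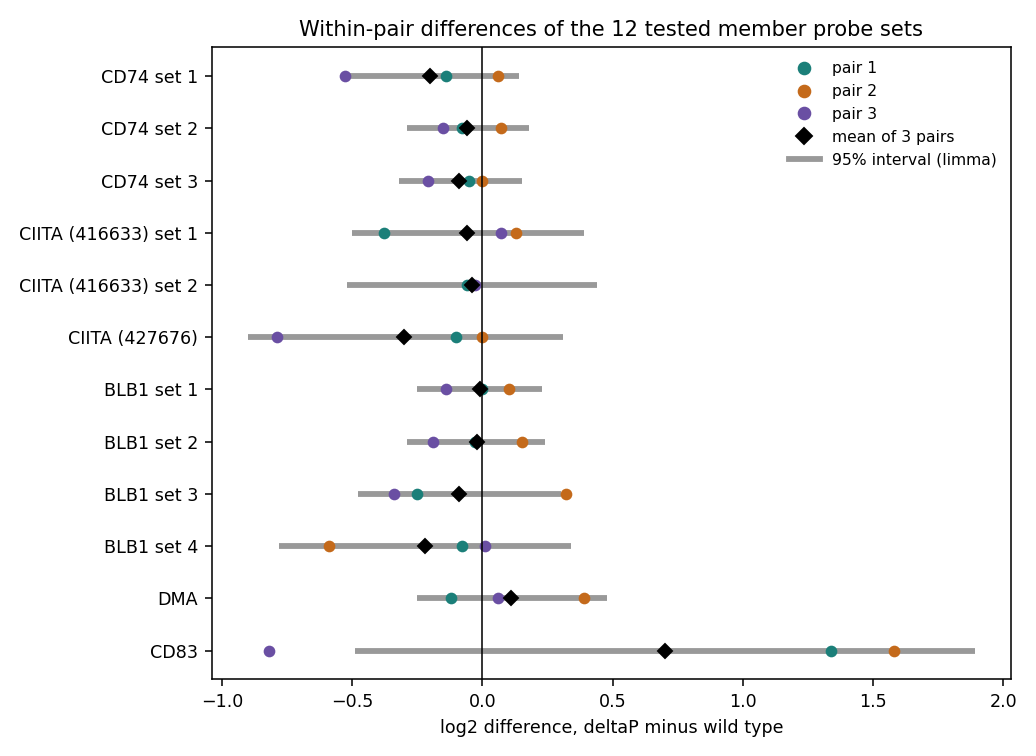
Log2 differences, deltaP minus wild type (x axis), of the 12 tested probe sets (rows), with coloured points for pairs 1 to 3, a diamond for their mean and a grey bar for the 95% interval of the limma fit. Every bar crosses 0, and CD83 spans from -0.82 in pair 3 to 1.58 in pair 2.

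The brightest sets of 2 class II genes shared an order of signs over the pairs, which other class II sets did not follow. The 6 sets of CD74 and BLB1 with a mean over 12 were all lower in deltaP in pair 1, higher in pair 2 and lower in pair 3, although the third CD74 set in pair 2 and the first BLB1 set in pair 1 were at 0 when rounded. This order was found in 13.8% of all tested probe sets and in 17.4% of the 947 with a mean over 12, and the 6 sets stand for 2 genes. DMA, with -0.12, 0.39 and 0.06, and the fourth BLB1 set, with -0.08, -0.59 and 0.01, broke the order. Leaving out CD83, the 11 other tested sets had medians of -0.08, 0.07 and -0.15 in pairs 1, 2 and 3, where all tested probe sets had medians of 0.01, 0.02 and -0.05. The median SD of the pair differences was 0.27 for the 12 members and 0.29 for all tested probe sets.

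The tested genes with 3 pair differences closest to those of the first CD74 set, by Euclidean distance, were RPL15 (a ribosomal protein, at 0.027), WRNIP1 (0.041), NENF (0.049), TCP11L1 (0.051) and C16orf52 (0.056). With only 3 differences to compare, likeness is common: 213 of 7767 genes lay within a distance of 0.2.

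Further genes of the pathway were read in 6 lists, with the brightest tested probe set standing for each gene and p adjusted over all 7768 tested genes. Of the 62 tested genes in these lists, 0 passed the adjusted threshold in limma and 9 (14.5%) had an unadjusted p under 0.05, where the shares over all tested genes were 0% and 9.93%. The 9 were 3 of 9 other costimulators, 2 of 11 genes of class II transcription and 1 gene in each of the other 4 lists. A same direction in all 3 pairs was found for 23 of the 62 (37.1%), against 33.3% of all tested genes, so 3 of 3 pairs in 1 direction is common here. Of all tested genes, deltaP was higher for 3984 and lower for 3784, and their median difference was 0.01.

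Loading and processing genes, which prepare peptides and trim the invariant chain, were more often higher than lower in deltaP (10 of 13 tested, median 0.09), but in pair 3 alone 5 of 13 were higher and the median was -0.14. CTSD, the aspartic protease cathepsin D, had differences of 0.75, 0.25 and 0.65 in the pairs (limma adjusted p = 0.318), a mean of 0.55 that was 0.83 over all its tested sets. IFI30, the lysosomal thiol reductase that opens disulfide bonds of antigens, differed by 0.17 ± 0.07 (SD, n = 3 pairs) and was higher in deltaP in 3 of 3 pairs (adjusted p = 0.59). AP1M1, a clathrin adaptor subunit, differed by 0.25 ± 0.11, also with 3 of 3 pairs higher (adjusted p = 0.558). LGMN, the asparagine endopeptidase that begins invariant chain cleavage in some mammalian cells, had 0.77 and 0.78 in pairs 1 and 2 but -0.26 in pair 3 (adjusted p = 0.594). CTSS, cathepsin S, the protease that removes the last large invariant chain piece in mammalian antigen-presenting cells, differed by 0.03 ± 0.2 (adjusted p = 0.955). The DM beta chain gene DMB2 averaged 3.29 in deltaP and 3.2 in wild type and was not tested.

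Genes of class II transcription, both factors and coactivators, were level as a list. Of 11 tested genes, 6 were higher in deltaP and 5 lower, with a median of 0.04. IRF8, a factor of monocyte and dendritic cell development, was lower in 3 of 3 pairs, by 0.52 ± 0.45 (SD, n = 3 pairs; limma adjusted p = 0.431). SPI1, which encodes the myeloid factor PU.1, differed by 0.12 ± 0.04 (adjusted p = 0.723), or 0.06 over all its tested sets. Of the RFX subunit genes, RFXANK had -0.22, 0.28 and -0.78 in the pairs, and RFXAP -0.59, 0.14 and -0.16 (adjusted p = 0.765 and 0.78). KAT2B, an acetyltransferase coactivator, was lower by 0.44 ± 0.28 with its brightest set (limma adjusted p = 0.444), but the mean over its tested sets was -0.04. CREB1, which binds the X2 box, was 0.5 with the brightest set and 0.04 as a mean over sets. The third RFX subunit gene, RFX5, was below the filter value, with means of 2.81 in deltaP and 2.72 in wild type.

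Interferon gamma induces CIITA through its receptor, JAK kinases and the factor IRF1. In that list 3 of 9 tested genes were higher and 6 lower in deltaP (median -0.05). SOCS1, an inhibitor of JAK signalling, was higher in 3 of 3 pairs, by 1.18 ± 0.64 (SD, n = 3 pairs; limma adjusted p = 0.26). Of the receptor chains, IFNGR1 had differences of -0.65, -0.02 and -1.18 (adjusted p = 0.552), so it was near level in pair 2. IFNGR2 had -0.66, -0.09 and -0.27 (adjusted p = 0.515), a mean of -0.34 that was -0.2 over all its tested sets. IRF1 ran from -0.87 in pair 1 through -0.08 in pair 2 to 0.6 in pair 3 (adjusted p = 0.914). SOCS3, a further inhibitor, differed by 0.3 ± 0.21 (adjusted p = 0.672). The cytokine gene IFNG itself was below the filter value, with means of 3.59 in deltaP and 3.68 in wild type.

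Genes of the class I pathway, some of which share the MHC locus with class II, were higher in deltaP in pair 3. In that pair 8 of the 11 tested sets of CD74, BLB1, DMA and CIITA were lower, against 55.1% of all tested probe sets. These 11 count several sets of some genes, while class I was counted by 1 set a gene. By brightest set, CD74 (-0.53), BLB1 (-0.14) and the second CIITA identifier (-0.79) were lower in pair 3. DMA (0.06) and the first CIITA identifier (0.07) were higher. Of the 8 tested class I genes, 6 were higher over the pairs (median 0.19). In pair 3 all 8 were higher with a median of 0.52, beside medians of -0.12 in pair 1 and 0.22 in pair 2. Over all tested genes in pair 3, 3555 of 7768 were higher and the median was -0.04. The poly-A and hybridization controls had medians of 0.68 and 0.53 in that pair, near that of the class I genes. Of the 19 class I entries, 9 could not be matched to a probe set. The part of the controls' shift in the class I values was not tested. PDIA3, a chaperone of class I loading, had differences of 0.25, 0.37 and 1.63 (limma adjusted p = 0.461). ERAP1, an aminopeptidase that trims class I peptides, had -0.24, 0.42 and 1.1 (adjusted p = 0.627), a mean of 0.43 that was 0.22 over all its tested sets. CALR and CANX, chaperones with wider roles in protein folding, differed by 0.43 ± 0.52 and 0.21 ± 0.09 (SD, n = 3 pairs; adjusted p = 0.567 and 0.56), CANX by 0.13 over all its tested sets. B2M, bright at 15.27 in deltaP and 15.31 in wild type, was near level in every pair, at -0.13, -0.03 and 0.05 (limma adjusted p = 0.914). The difference between the class I and class II genes was not tested.

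Within the chicken MHC, the gene table (assembly GRCg7b) gives the order BLB1, TAPBP, BLB2, BRD2, DMA, DMB1, DMB2, BF1, TAP1, TAP2 and BF2. The genes beside the class II members were read for this order, after their values had been seen. TAP2, a peptide transporter subunit, had -0.34, 0.08 and 0.73 in pairs 1, 2 and 3 (adjusted p = 0.845), where the BLB1 first set had 0, 0.1 and -0.14. TAPBP, which bridges class I to that transporter and lies between the beta chain genes, had -0.44, 0.27 and 0.04 (adjusted p = 0.955). BRD2, a bromodomain protein next to DMA, had 0.47, 0.52 and 0.42, the most even of these genes (limma adjusted p = 0.417 over probe sets). BF2, the main class I heavy chain gene, differed by 0.14 ± 0.11 with its brightest set and by 0.95 ± 0.49 (SD, n = 3 pairs) with a dimmer one, both _x_at sets. Their limma adjusted p over probe sets were 0.707 and 0.372, and the mean over the tested BF2 sets was 0.55.

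**Figure D3:**
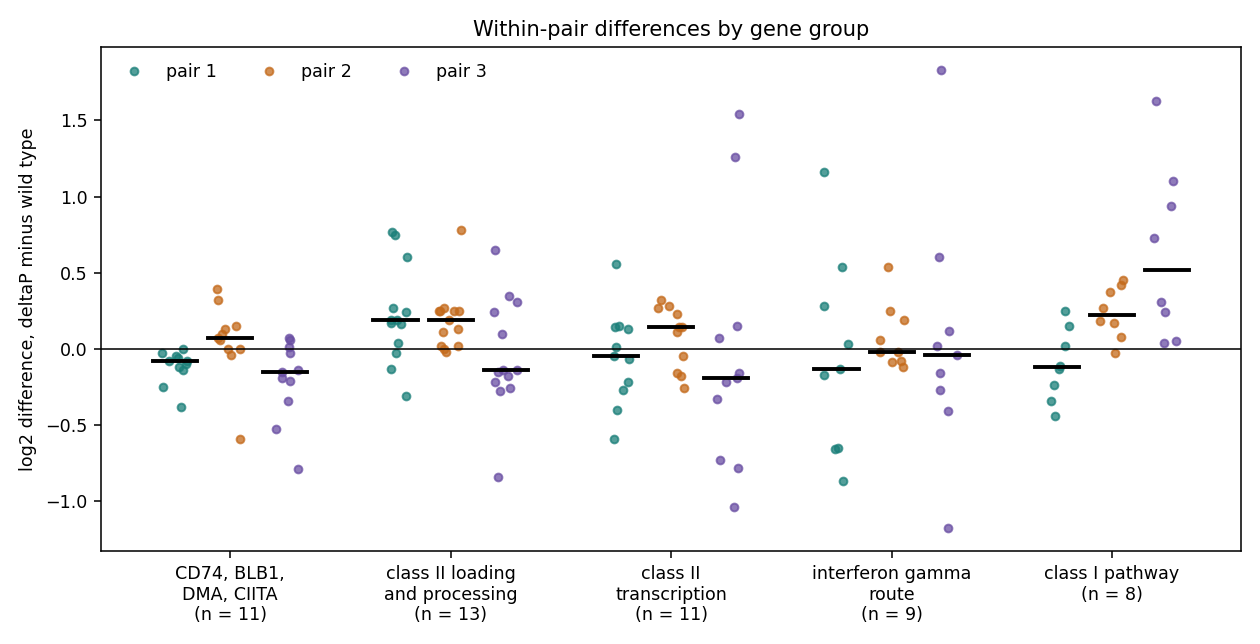
Log2 differences within pairs 1, 2 and 3 (y axis, deltaP minus wild type) for 11 tested probe sets of CD74, BLB1, DMA and CIITA and for the tested genes of 4 lists, with a bar at each median. In pair 3 the class II sets, with several sets for some genes, have a median of -0.15. The class I genes, 1 set each, have a median of 0.52 and run from 0.04 to 1.63.

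Downstream of CD40, 6 of 12 tested genes were higher and 6 lower in deltaP. TRAF5, an adaptor of TNF family receptors, was lower in 3 of 3 pairs, by 0.89 ± 0.58 (SD, n = 3 pairs; limma adjusted p = 0.36), and its mean over all tested sets was -0.5. MAP3K14, the kinase of the noncanonical NF-kB route, was -0.33 ± 0.31, BIRC2, a ubiquitin ligase of that route, 0.24 ± 0.18, and CHUK, an IkB kinase subunit, 0.24 ± 0.22 (adjusted p = 0.594, 0.595 and 0.639). Over all tested sets these were -0.22, 0.1 and 0.35. CD40LG, the ligand, was at 2.32 in deltaP and 2.37 in wild type.

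Other costimulators, checkpoint ligands and their receptors gave 9 tested genes, 6 higher and 3 lower (median 0.05). CD200R1A, whose mammalian relative is an inhibitory receptor of myeloid cells, was higher in 3 of 3 pairs, by 1.17 ± 0.72 (SD, n = 3 pairs; limma adjusted p = 0.262). PDCD1LG2, which encodes the checkpoint ligand PD-L2, had differences of 1.66, 0.79 and 0.52 (limma adjusted p = 0.318). Its neighbour in function CD274, or PD-L1, had 0.66, 0.32 and -0.78 (adjusted p = 0.959). SLAMF1, a self-binding receptor of leukocytes, was lower in 3 of 3 pairs, by 0.79 ± 0.47 (limma adjusted p = 0.342). CD28, the receptor of CD80 and CD86, averaged 10.24 in deltaP and 10.48 in wild type (adjusted p = 0.681).

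Markers of cell types, among them types that could carry class II, were read on the same arrays. Of 16 monocyte and macrophage genes with a probe set 14 were tested, among them CSF1R at 12.51 in deltaP and 12.82 in wild type and SPI1 at 13.68 in deltaP and 13.56 in wild type. CEBPA was dim (4.7 in deltaP, 5.17 in wild type), and MARCO (4.02 in deltaP, 3.66 in wild type) and MRC1 (2.64 in deltaP, 2.62 in wild type) did not enter the test.

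Of 9 B cell genes 2 were tested: BCL11A, at 9.9 in deltaP and 9.87 in wild type, and SH2D6, matched as a synonym of BLNK, at 10.04 in deltaP and 9.73 in wild type. The B cell genes PAX5 (3.46 in deltaP, 3.54 in wild type) and CD79B (2.33 in deltaP, 2.38 in wild type) were below the filter value. Among 10 dendritic cell genes, which include CD83 and both CIITA identifiers, 5 were tested. LY75, an endocytic receptor, was bright (13.3 in deltaP, 13.48 in wild type) and BATF3 was at 5.17 in deltaP and 4.98 in wild type, while XCR1 (2.52 in deltaP, 2.49 in wild type) and ZBTB46 (2.93 in deltaP, 2.66 in wild type) were below the filter value.

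T cell genes were mixed: 4 of 13 were tested, and CD4, CD8A, LCK and ZAP70 were below the filter value. The mean log2 value over the 13 genes, most of them not tested, lay between 4.41 and 4.65 on the deltaP arrays. On the wild type arrays it lay between 4.3 and 4.54. Since the sums of same-numbered arrays are equal, these ranges restate the pair differences and show no spread within a group. The 4 tested genes were brighter. CD3D averaged 10.02 in deltaP and 10.59 in wild type, and CD28 10.24 and 10.48. CD247 averaged 8.12 in deltaP and 7.73 in wild type, and CD3E 6.31 and 6.06. CD3E, a T cell receptor subunit, had differences of 0.41, 2.52 and -2.19 in pairs 1, 2 and 3. CD3D had -1.17, 1.07 and -1.63. CD247 had 0.57, 0.6 and -0.01, and CD28 -0.53, 0.17 and -0.38. Of 7 erythroid genes 4 were tested, with medians of 1.1, 0 and -1.4 in pairs 1, 2 and 3. The globins HBAD and HBA1 had 2.91, 0.29 and -2.65, and 1.76, -0.04 and -2.94. GYPC, near the filter value (mean 3.76 in deltaP, 4.27 in wild type), had -0.78, -0.59 and -0.15. Only its wild type arrays were over the filter value, so its lower direction in deltaP was favoured by the filter. The fourth, ALAS1, had 0.43, 0.05 and 0.13. It entered the list, and so these medians, only as a synonym of ALAS2 and need not mark erythroid cells. Of 4 thrombocyte genes 2 were tested. ITGB3 (3.04 in deltaP, 3 in wild type) and GP9 (2.41 in deltaP, 3.16 in wild type) were below the filter value. F5 was lower in deltaP in all 3 pairs (-1.6, -0.76 and -0.73, limma adjusted p = 0.239), and TUBB1 had 0.62, 0.19 and -1.05. Of 11 fibroblast genes 2 were tested. The others, among them COL1A1 (2.26 in deltaP, 2.47 in wild type) and PDGFRA (2.27 in deltaP, 2.28 in wild type), were below the filter value. FN1 was lower in all 3 pairs (-1.73, -2.08 and -0.72, limma adjusted p = 0.213), and COL3A1, near the filter value, had -0.05, -0.03 and 0.22. Whether other cells had a part in the CD83 or class II values was not tested, and in bulk RNA fewer cells of a type cannot be told apart from less RNA per cell.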

How the data were processed

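Total RNA (5 ug per labelling) was hybridized to 6 Affymetrix chicken arrays, 3 per group, per the labels' protocols. The deposited table holds log2 expression values per probe set, and the submitters' processing notes name Partek 6.4 and GCRMA. GCRMA corrects background by probe sequence and presses dim probe sets to a floor, which can compress or inflate their differences. Pair means had been equalised before deposit (the step is not given in the sources used), and the deviations of paired arrays from their group means correlated at -1 in all 3 pairs. A block on the replicate number was therefore used, leaving 2 residual degrees of freedom, where the fit without it counts 4.

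After leaving out 96 controls, differences were tested with limma 3.58.1 (R 4.3.3), with an intensity trend, two-sided, with Benjamini-Hochberg adjustment over all tested probe sets or genes at 0.05. The fit was also run on simulated data, but the outcome is not given here, so its power is not stated. Symbols came from the platform annotation of 2016, with names and gene order from RefSeq (GRCg7b); no coordinates are given. The named genes are all members, up to 4 genes a list with the smallest p, genes needed to say what a list holds, the 5 nearest to CD74, and defining markers. TAP2, TAPBP, B2M, BRD2, CD274, IRF1, CD3D, CD3E, CD247, CEBPA, MARCO, MRC1, LY75, BATF3, BCL11A, SH2D6, F5, TUBB1, FN1, COL3A1, the erythroid genes and the CD88 probe set were added after their values were seen. Members and lists were chosen with earlier results of these data known. Alternatives covered the block, each pair, the filter, the trend, robust moderation, centring and probe set summaries.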

Additional observations from a re-analysis of the deposited data

How the results depend on the processing

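The count of member probe sets past the adjusted threshold was 0 in all 11 alternatives: no replicate block, each pair left out, no filter (17 sets tested), a filter at 6 (9 sets), no intensity trend, robust moderation, median centring, and 1 value a gene by the brightest set or the mean of sets. At an unadjusted p under 0.05 the count was 0 in each of these except that leaving out a pair gave between 0 and 1, the 1 being CD83 without pair 3. Without the replicate block limma called 1120 of all 16199 probe sets, against 0 with it, and the lowest adjusted p of a member was 0.284. In the main fit the lowest was 0.691. Among the other fits with the block and all pairs the lowest was 0.654, for the first CD74 set with the filter at 6. Over the alternatives that kept the block it was 0.105, for CD83 without pair 3.

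Of 81 member values under alternatives that kept all pairs, 80 kept their direction; the BLB1 first set moved to 0 with median centring. Leaving out a pair turned the sign of 5 sets that were near 0: the brightest CIITA set ranged from -0.16 to 0.1, the first 3 BLB1 sets from -0.07 to 0.05, from -0.11 to 0.06 and from -0.3 to 0.04, and DMA from -0.03 to 0.23. CD83 ranged from 0.26 to 1.46 and the first CD74 set from -0.33 to -0.04. The medians of the 6 lists moved by less than 1 SD of their pair medians, but without pair 1 the CD40 list and the other costimulators were at -0.1 and class II transcription at -0.01, and without pair 2 they were at -0.08, 0.02 and -0.02. Scanner files were not analysed here, so saturation of the brightest sets was not checked, and sets near the floor limit what can be said of CD40, CD86 and BLB2.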
